A study of Sus scrofa with 12 samples.

Results

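Fat cells are secretory cells, and 7 genes for products they are known to release were followed here: the adipokines ADIPOQ, LEP and RETN, the retinol carrier RBP4, the complement protease CFD, the angiotensin precursor AGT and the enzyme ENPP2. They were picked by name from the platform annotation, with earlier results of these data known. Each gene was read from the probe set (a group of short probes summarised to 1 value) with the highest mean over the 12 arrays among those carrying that 1 symbol. The genes have 9 probe sets among the 23999 tested, and all 7 are among the 6765 named genes. No filter on low values was applied, so every one of the 7 was tested.

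The arrays measured pig RNA in 4 groups of 3. Dedifferentiated fat cells (DFAT) came from mature adipocytes that attached to the upper wall of a full vessel (ceiling culture), and were taken at semiconfluence. Mature adipocytes (MA) were isolated from fat tissue. Dedifferentiated granulosa cells (DFOG) were cultured in vitro to semiconfluence from granulosa cells (GC), the cells that surround the oocyte in the ovarian follicle, and GC themselves came from ovarian follicles. No breed, age, sex or treatment beyond the culture is labelled, and nothing says which animals the replicates came from, so p-values reflect variation among these samples alone. Each dedifferentiation comparison sets cultured against freshly isolated cells, so dedifferentiation and other effects of culture cannot be told apart.

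Adiponectin and leptin are hormones made chiefly by adipocytes. Adiponectin raises insulin sensitivity through its receptors ADIPOR1 and ADIPOR2, and leptin reports the size of the fat store to the brain through LEPR. RBP4 carries retinol in blood. CFD (adipsin, complement factor D) cleaves factor B and so starts the alternative complement pathway. AGT is cut by renin and then by ACE into angiotensin II, which acts on AGTR1. ENPP2 (autotaxin) makes lysophosphatidic acid, a lipid signal read by the LPAR receptors. Resistin (RETN) is an adipocyte hormone in mice, whereas in humans it comes mainly from macrophages and monocytes.

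DFOG replicates 2 and 3 differed by an SD of 0.07 on the log2 scale over all tested probe sets, against 0.31 to 0.62 in the 11 other pairs of arrays of a group. They were averaged and counted as 1 sample, so DFOG has n = 2, the other groups have n = 3, and the fit rests on 11 samples. The actin control read at both transcript ends gives a measure of RNA quality, and its 3′ end exceeded its 5′ end on the log2 scale by 0.33 to 0.97 in DFAT and 1.50 to 2.48 in MA, and 0.15 to 0.64 in DFOG and 0.72 to 1.76 in GC. Its part in the results was not tested beyond fits that carry it as a covariate. Levels are log2 values from RMA (robust multi-array averaging, which gives all arrays a common distribution), so each unit is a 2-fold step, differences are relative to the bulk of each array's RNA, and genes near the floor have understated changes. In bulk samples fewer expressing cells and less RNA per cell cannot be told apart. The labels held against markers. Of 10 measured adipocyte markers 9 fell in DFAT relative to MA and 8 were higher in MA than in GC, and of 12 granulosa markers 8 fell in DFOG relative to GC.

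**Figure D1:**
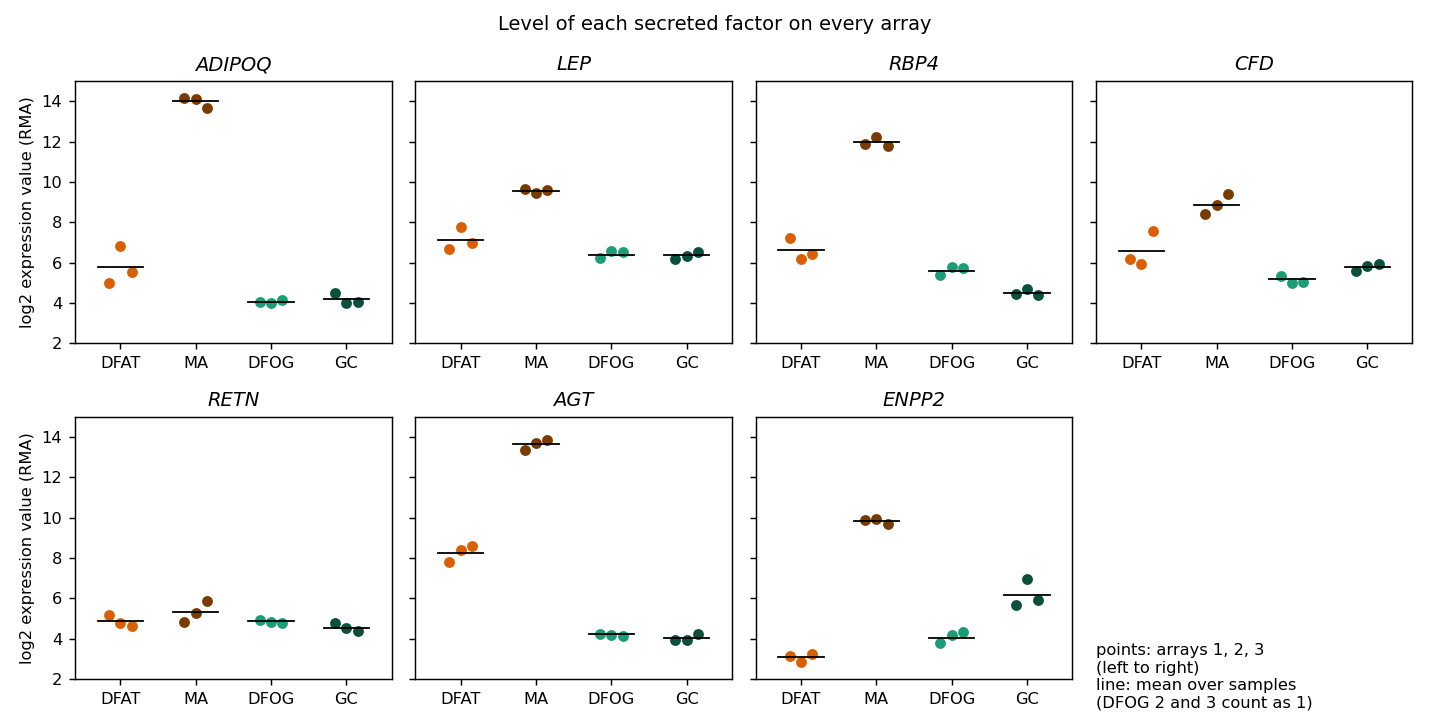
Log2 expression value of each of the 7 genes (vertical axis) on every array of the 4 groups, with points for arrays 1, 2 and 3 and a line for the mean over samples. ADIPOQ, LEP, RBP4, CFD, AGT and ENPP2 lie higher on all 3 MA arrays than on any other array, whereas the RETN points of MA and DFAT overlap.

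Dedifferentiation of fat cells was examined by comparing DFAT with MA. Of the 7 genes 6 fell, 0 rose, and RETN did not pass the test. A gene was called where limma's Benjamini-Hochberg adjusted p, taken over all 23999 probe sets, was under 0.05. This held for 32.1% of all probe sets, 16.4% being lower and 15.7% higher in DFAT. The median log2 change was -5.34 over the 7 genes and -0.07 over all probe sets. Ranges of DFAT and MA did not overlap for 6 of the 7, all 6 lower in DFAT, while 23.8% of all probe sets were lower and 20.2% higher in DFAT without overlap. Centring the arrays on the poly-A control RNAs (spiked-in bacterial RNAs) in place of the deposited scale gave a median of 0.56 over all probe sets and calls of 6884 higher and 1340 lower, against 3765 and 3941, and the same 6 genes were lower in DFAT.

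ADIPOQ, the adiponectin gene, had log2 levels of 5.00, 6.82 and 5.51 on the 3 DFAT arrays, against 14.18, 14.12 and 13.67 on the MA arrays. Every DFAT array lay far below every MA array, and DFAT 2 was the highest of the DFAT arrays. The log2 change was -8.21 ± 0.37 (SE, limma adjusted p = 5.52e-08), which leaves 0.338% of the MA level (95% interval 0.191 to 0.598%). ADIPOQ was at 4.05, 3.98 and 4.15 on the DFOG arrays and at 4.48, 4.02 and 4.06 on the GC arrays. Granulosa cells thus gave values with no separation between cultured and isolated cells, and the DFOG minus GC change was -0.13 (95% interval -1.05 to 0.80, limma adjusted p = 0.894). DFAT stayed above DFOG by 1.72 ± 0.42 (SE, limma adjusted p = 0.0273). The difference was 1.71 without DFOG replicate 1 (adjusted p = 0.153) and 1.72 without DFOG replicates 2 and 3 together (adjusted p = 0.127), neither called. Each of these fits leaves DFOG with 1 sample, which is assumed to vary like the other groups. With only DFAT and DFOG fitted it was 1.72 and not called (adjusted p = 0.176).

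LEP, the leptin gene, is read by several probe sets, and the one with the highest mean stands for it here. Its log2 levels were 6.65, 7.75 and 6.96 on the DFAT arrays, against 9.65, 9.43 and 9.62 on the MA arrays. DFAT was lower without overlap, and DFAT 2 was again the highest of its group. LEP fell by 2.45 on the log2 scale (SE 0.25, limma adjusted p = 1.98e-05), to 18.3% of the MA level (95% interval 12.5 to 26.8%). On the DFOG arrays LEP was at 6.23, 6.56 and 6.51 and on the GC arrays at 6.20, 6.35 and 6.55. These granulosa values overlapped, with a change of 0.02 (95% interval -0.60 to 0.63, limma adjusted p = 0.98). DFAT lay 0.74 above DFOG without passing the test (adjusted p = 0.17).

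The size of the leptin change depended on the probe set. The other tested leptin probe set had 3.51, 6.71 and 5.50 on the DFAT arrays, against 9.81, 9.10 and 9.33 on the MA arrays, and fell by 4.17 ± 0.59 in DFAT (SE, limma adjusted p = 0.000243). DFAT 1 was at the granulosa level on that probe set (3.43 to 3.67 over the 6 granulosa arrays), and DFAT 2 was well above it. Another 2 leptin probe sets belong to the array's controls and were left out of the tests. The 5′ control had means of 6.65 ± 0.23 in DFAT and 8.39 ± 0.23 in MA (SD, n = 3 each), and the middle control 6.64 ± 0.29 in DFAT and 7.89 ± 0.39 in MA (SD, n = 3 each). All 4 leptin probe sets were lower on every DFAT array than on any MA array.

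RBP4, the retinol carrier, had log2 levels of 7.24, 6.18 and 6.44 on the DFAT arrays, against 11.87, 12.23 and 11.78 on the MA arrays. The groups were wide apart, and here DFAT 1, the lowest DFAT array for ADIPOQ and LEP, was the highest. The change was -5.34 ± 0.26 (SE, limma adjusted p = 8.01e-08), or 2.48% of the MA level (95% interval 1.67 to 3.67%). In granulosa cells RBP4 went the other way. The DFOG arrays had 5.37, 5.78 and 5.75, against 4.44, 4.70 and 4.38 on the GC arrays. Each DFOG array was above each GC array, and RBP4 rose by 1.06 ± 0.29 (SE, limma adjusted p = 0.0198). That rise was not called once the actin difference entered as a covariate (1.16, adjusted p = 0.0687), on the poly-A scale (0.27, adjusted p = 0.517), without GC replicate 3 (adjusted p = 0.0626), with the mean of the RBP4 probe sets (0.54, adjusted p = 0.052) or without DFOG replicates 2 and 3 together (0.87, adjusted p = 0.14). The other RBP4 probe set stayed between 5.21 and 5.99 on all 12 arrays. It showed a change of -0.41 between DFAT and MA (limma adjusted p = 0.0995) and of 0.02 between DFOG and GC (limma adjusted p = 0.964), so the 2 RBP4 probe sets disagree. Whether the nearly level one reads RBP4 above background is unknown.

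**Figure D2:**
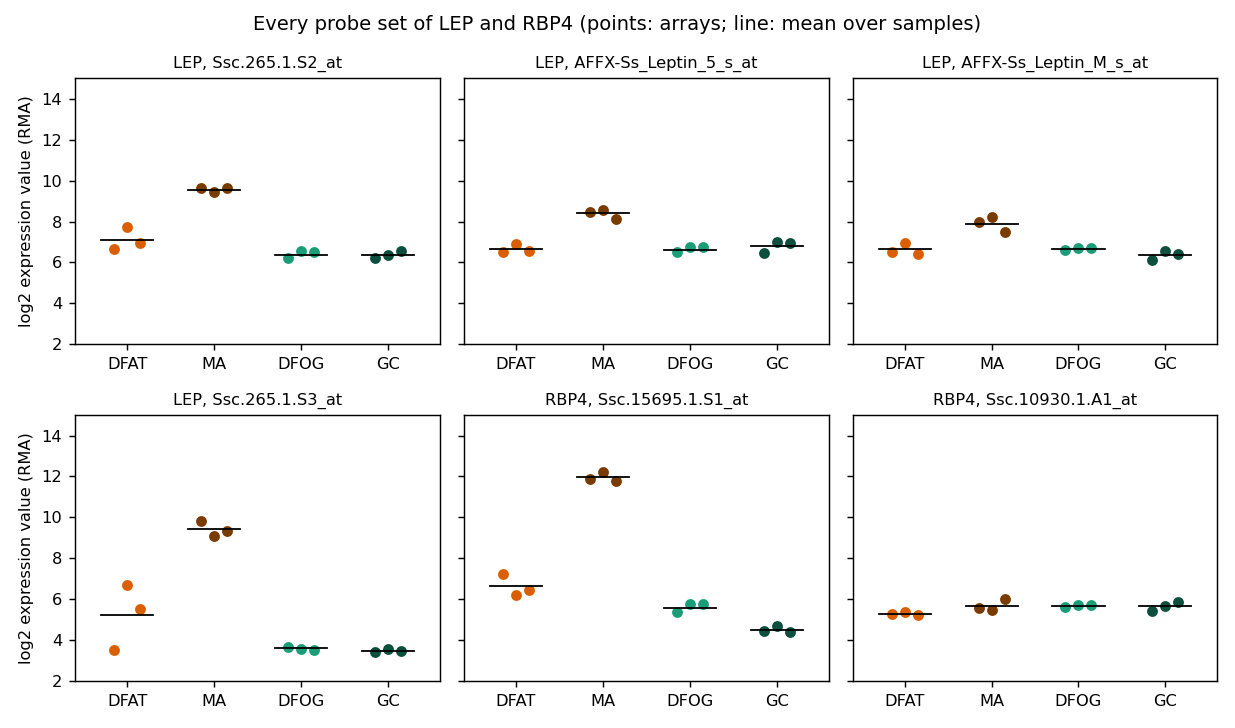
Log2 expression value on every array (points) and mean over samples (lines) for the 4 probe sets of LEP and the 2 of RBP4. The 4 LEP probe sets are lower in DFAT than in MA by different amounts, while the second RBP4 probe set is nearly level over the groups.

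CFD, the adipsin gene, had log2 levels of 6.18, 5.95 and 7.57 on the DFAT arrays, against 8.39, 8.84 and 9.41 on the MA arrays. DFAT 3 stood above the other DFAT arrays and came within 1 log2 unit of the lowest MA array, but the groups did not overlap. CFD fell by 2.31 on the log2 scale (SE 0.39, limma adjusted p = 0.000733), leaving 20.1% of the MA level (95% interval 11.2 to 36.2%). Values were 5.34, 5.00 and 5.04 on the DFOG arrays and 5.59, 5.83 and 5.95 on the GC arrays. DFOG lay below GC on every array, yet the change of -0.61 did not pass the test (95% interval -1.56 to 0.34, limma adjusted p = 0.378). With poly-A centring it did (-1.40, adjusted p = 0.0144).

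Macrophages also express CFD, and most of their measured markers fell as well. Of 15 listed macrophage markers 10 were measured, and 8 of the 10 fell in DFAT relative to MA (5 fell and 1 rose with poly-A centring). The log2 of their summed linear levels was 8.61, 8.10 and 8.65 on the DFAT arrays, against 9.31, 9.90 and 10.31 on the MA arrays. Among the MA arrays, the array highest for CFD was also highest for this sum. Among the DFAT arrays DFAT 3 was highest for both, but its sum of 8.65 was nearly tied with the 8.61 of DFAT 1. TYROBP, a marker in the sum that did not fall, was at 7.21, 5.94 and 7.44 on the DFAT arrays. It was at 6.13, 5.91 and 6.59 on the MA arrays. The defining marker CD163 was at 4.53, 4.14 and 4.17 on the DFAT arrays, against 6.04, 6.14 and 6.52 on the MA arrays. C1QC, a complement component of macrophages, was at 3.47, 3.37 and 3.65 on the DFAT arrays, against 4.74, 8.12 and 8.40 on the MA arrays. The part of macrophage RNA in the CFD difference was not tested.

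RETN, the resistin gene, was at 5.18, 4.79 and 4.63 on the DFAT arrays, against 4.82, 5.30 and 5.85 on the MA arrays. The ranges overlapped, and the change of -0.45 did not pass the test (95% interval -1.0 to 0.10, limma adjusted p = 0.209). It was called without MA replicate 1 (-0.70, adjusted p = 0.0458) and when actin entered as covariate (-1.15, adjusted p = 0.0257), and was 0.18 with poly-A centring. The DFOG arrays had 4.94, 4.81 and 4.77 and the GC arrays 4.77, 4.51 and 4.36, a change of 0.32 (95% interval -0.30 to 0.93, limma adjusted p = 0.504). RETN thus spanned 4.36 to 5.85 over all 12 arrays. The deposited values carry no detection calls, so whether this probe set reads RETN above background is unknown, and its missing calls do not show that RETN was unchanged. The MA array highest for RETN, MA 3, was also the one highest for the macrophage sum. Among the DFAT arrays it was otherwise, as DFAT 3, highest for that sum, was lowest for RETN. The part of macrophage RNA in the RETN values was not tested.

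AGT, the angiotensinogen gene, had log2 levels of 7.83, 8.40 and 8.60 on the DFAT arrays, against 13.37, 13.70 and 13.86 on the MA arrays. The change was -5.37 ± 0.21 (SE, limma adjusted p = 1.91e-08), or 2.42% of the MA level (95% interval 1.75 to 3.35%). The DFOG arrays gave 4.25, 4.20 and 4.15 and the GC arrays 3.96, 3.96 and 4.22, a change of 0.16 (95% interval -0.36 to 0.69, limma adjusted p = 0.718). Cultured fat cells therefore kept AGT above every granulosa array. DFAT exceeded DFOG by 4.06 ± 0.24 (SE, limma adjusted p = 1.72e-06), a 16.7-fold difference, and this was called in each of the 24 alternative fits.

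ENPP2, the autotaxin gene, had log2 levels of 3.16, 2.84 and 3.24 on the DFAT arrays, against 9.88, 9.95 and 9.70 on the MA arrays. It fell by 6.76 on the log2 scale (SE 0.29, limma adjusted p = 3.35e-08), to 0.921% of the MA level (95% interval 0.591 to 1.43%). Granulosa cells also lost it in culture. The DFOG arrays had 3.81, 4.17 and 4.36, against 5.66, 6.94 and 5.94 on the GC arrays, and ENPP2 fell by 2.14 on the log2 scale (SE 0.32, limma adjusted p = 0.000568). DFAT was below DFOG on every array, by -0.96 ± 0.32 (SE), which did not pass the test (adjusted p = 0.117). It passed with DFOG 2 and 3 as separate samples (adjusted p = 0.033), after adding actin as covariate (adjusted p = 0.0308) and without GC replicate 2 (adjusted p = 0.0197).

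In granulosa cells as a whole, RBP4 rose, ENPP2 fell and the other 5 genes did not pass the test. Among all probe sets 12.3% were called higher and 12.6% lower in DFOG, so 2 calls in 7 is close to the background of 24.9%. Ranges did not overlap for 4 of the 7 genes, 2 lower (CFD and ENPP2) and 2 higher (RBP4 and RETN) in DFOG, where 25.1% of all probe sets were lower and 23.9% higher without overlap. The median log2 change was 0.02 over the 7 genes and -0.02 over all probe sets. With poly-A centring the median over all probe sets was -0.81, the calls were 1062 higher and 9355 lower, against 2958 and 3013, and those among the 7 genes were ENPP2 and CFD, both lower in DFOG.

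**Figure D3:**
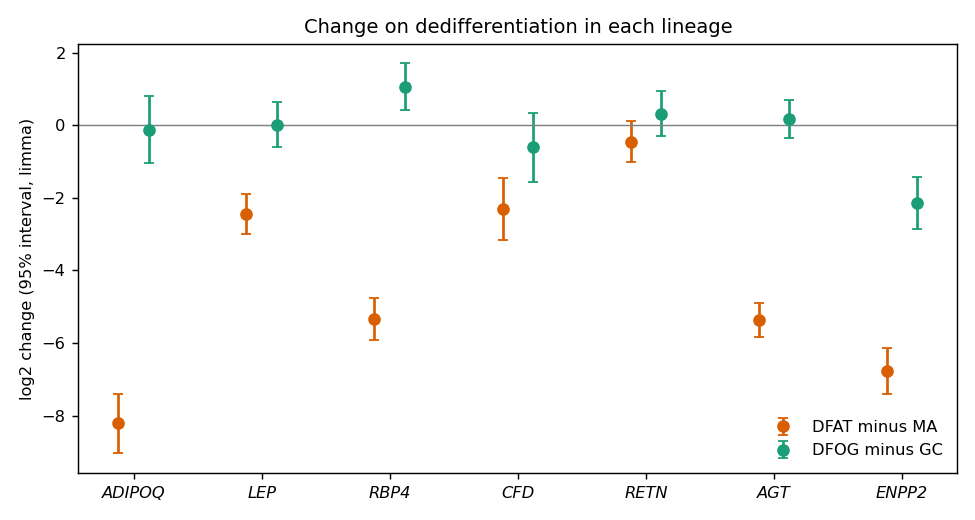
Log2 change with its 95% interval from limma for the 7 genes, for DFAT minus MA and for DFOG minus GC. In fat cells 6 intervals lie below 0, while in granulosa cells the RBP4 interval lies above 0 and the ENPP2 interval below it.

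Whether the lineages differed in their change was tested by the interaction, (DFAT minus MA) minus (DFOG minus GC). ADIPOQ, LEP, RBP4, AGT and ENPP2 passed, each with a more negative change in fat cells than in granulosa cells, against 23.3% of all probe sets called, 11.7% in this direction and 11.6% in the other. The differences were -8.09 ± 0.56 for ADIPOQ (adjusted p = 2.99e-06), -6.40 ± 0.39 for RBP4 (adjusted p = 1.22e-06), -5.53 ± 0.32 for AGT (adjusted p = 9.1e-07), -4.62 ± 0.44 for ENPP2 (adjusted p = 2.58e-05) and -2.46 ± 0.37 for LEP (SE throughout, limma adjusted p = 0.000691). For ADIPOQ and AGT, whose GC means were 4.19 and 4.05, a fall in granulosa cells had little room to show, and the interaction adds little to the fall in DFAT. The same limit may hold for RBP4, with a GC mean of 4.51, and for LEP, whose other probe set had a GC mean of 3.48. ENPP2 had means of 9.84 in MA and 6.18 in GC, against 3.08 in DFAT and 4.04 in DFOG. From the lower GC level, a fall as large as that in DFAT had little room to show. On the other RBP4 probe set the difference was -0.43 and not called (limma adjusted p = 0.291). LEP was not called with poly-A centring (-1.04, adjusted p = 0.104), which called 16040 probe sets higher and 721 lower, against 2775 and 2818. CFD did not pass (-1.71 ± 0.58, SE, limma adjusted p = 0.0553), although 8 of 23 alternative fits called it. Over the fits its difference ranged from -2.21 to -0.28, with limma adjusted p from 0.00245 to 0.66. RETN was at -0.77 ± 0.38 (SE, limma adjusted p = 0.184), was called with array weights (-0.91, adjusted p = 0.0459) and with actin as covariate (-0.94, adjusted p = 0.0405), and was 0.65 with poly-A centring.

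Isolated fat cells were then compared with isolated granulosa cells. All 7 genes were higher in MA than in GC, without overlap between the groups, where 40.5% of all probe sets were called, 20.7% higher and 19.7% lower in MA. Without overlap, 28.4% of all probe sets were higher and 24.4% lower in MA. The largest difference was that of ADIPOQ, 9.80 ± 0.37 (SE, limma adjusted p = 7.9e-09), followed by AGT at 9.59 ± 0.21 (SE, limma adjusted p = 5.01e-10). RBP4 differed by 7.45, ENPP2 by 3.67, LEP by 3.20 and CFD by 3.09. The other RBP4 probe set differed by 0.03 and was not called (limma adjusted p = 0.9). RETN, at 0.77 ± 0.25 (SE, limma adjusted p = 0.0294), turned to -0.57 with poly-A centring (adjusted p = 0.121) and lost the call in 4 of 13 fits that left out arrays. Under it the median over all probe sets was -1.27 in place of 0.07, with 1146 higher and 19065 lower calls in MA, in place of 4976 and 4737.

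After culture the 2 lineages lay closer. Of the 7 genes 3 were higher in DFAT than in DFOG (AGT, ADIPOQ and RBP4) and 0 were lower, where 8.0% of all probe sets were called, 3.70% higher and 4.31% lower. Ranges did not overlap for 6 of the 7, with ENPP2 lower and ADIPOQ, LEP, RBP4, CFD and AGT higher in DFAT, where 14.7% of all probe sets were lower and 15.3% higher without overlap. The RBP4 difference of 1.05 ± 0.29 (SE, limma adjusted p = 0.0494) was called in 4 of 24 alternative fits, with adjusted p up to 0.421. CFD was 1.39 higher in DFAT than in DFOG without passing the test (adjusted p = 0.0841), although 4 of 24 alternative fits called it. Over the fits its limma adjusted p ran from 0.0243 to 0.32. RETN differed by 0.00 (95% interval -0.61 to 0.62).

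The order of the 4 groups was shared in part. For ADIPOQ and CFD it was MA, DFAT, GC and DFOG from high to low, and for LEP, RBP4, RETN and AGT it was MA, DFAT, DFOG and GC. ENPP2 differed, with MA, GC, DFOG and DFAT. Neighbouring groups in that order overlapped for GC and DFOG in ADIPOQ, for DFOG and GC in LEP and AGT, and for MA and DFAT as well as DFAT and DFOG in RETN.

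The receptors of these factors did not follow one direction. Over all probe sets 15.7% were called higher and 16.4% lower in DFAT, and 12.3% higher and 12.6% lower in DFOG. Those shares are the background for the counts of this and the following lists. Of 19 listed receptor genes 11 were measured; in DFAT 3 rose and 3 fell relative to MA (4 and 3 with poly-A centring), and in DFOG 3 rose and 1 fell relative to GC (2 and 2 with that centring). ADIPOR2, an adiponectin receptor, was at 9.07 ± 0.04 in DFAT and 13.32 ± 0.26 in MA (SD, n = 3 each), and fell by 4.25 on the log2 scale (SE 0.20, limma adjusted p = 5.78e-08). ADIPOR1, the other classical adiponectin receptor, was at 10.48 ± 0.43 in DFAT and 9.94 ± 0.22 in MA (SD, n = 3 each), a change of 0.54 that did not pass (limma adjusted p = 0.185) except with poly-A centring (1.17, adjusted p = 0.0168). CDH13, a cadherin that binds adiponectin, was at 6.61 ± 0.90 in DFAT and 6.76 ± 0.72 in MA (SD, n = 3 each) and did not pass (limma adjusted p = 0.842).

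The angiotensin II receptor AGTR1 rose in both lineages, while AGT fell in DFAT and was not called in DFOG. AGTR1 was at 10.95 ± 0.48 in DFAT and 8.10 ± 0.10 in MA (SD, n = 3 each), a rise of 2.85 ± 0.34 (SE, limma adjusted p = 7.26e-05), and at 9.98 ± 1.07 in DFOG (SD, n = 2) and 5.81 ± 0.19 in GC (SD, n = 3), a rise of 4.16 ± 0.39 (SE, limma adjusted p = 1.5e-05). LPAR6, a lysophosphatidic acid receptor, fell in both lineages, with changes of -1.71 ± 0.25 in DFAT (SE, limma adjusted p = 0.00027) and -1.86 ± 0.28 in DFOG (SE, limma adjusted p = 0.000478). LPAR2 and LPAR3 did not pass in either comparison of cultured with isolated cells, and LEPR, the leptin receptor, lay at 3.31 ± 0.07 in DFAT and 3.36 ± 0.12 in MA (SD, n = 3 each, limma adjusted p = 0.828). STRA6, LPAR1, LPAR4 and LPAR5 were not analysed here. TLR4, an innate immune receptor at which resistin can act, changed by -2.57 ± 0.27 in DFAT (SE, limma adjusted p = 2.44e-05), beside the fall of the macrophage markers, while CAP1, an actin regulator reported to bind resistin in humans, rose by 1.09 ± 0.19 in DFAT (SE, limma adjusted p = 0.00118, not called with the actin covariate) and by 1.87 ± 0.22 in DFOG (SE, limma adjusted p = 8.05e-05).

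**Figure D4:**
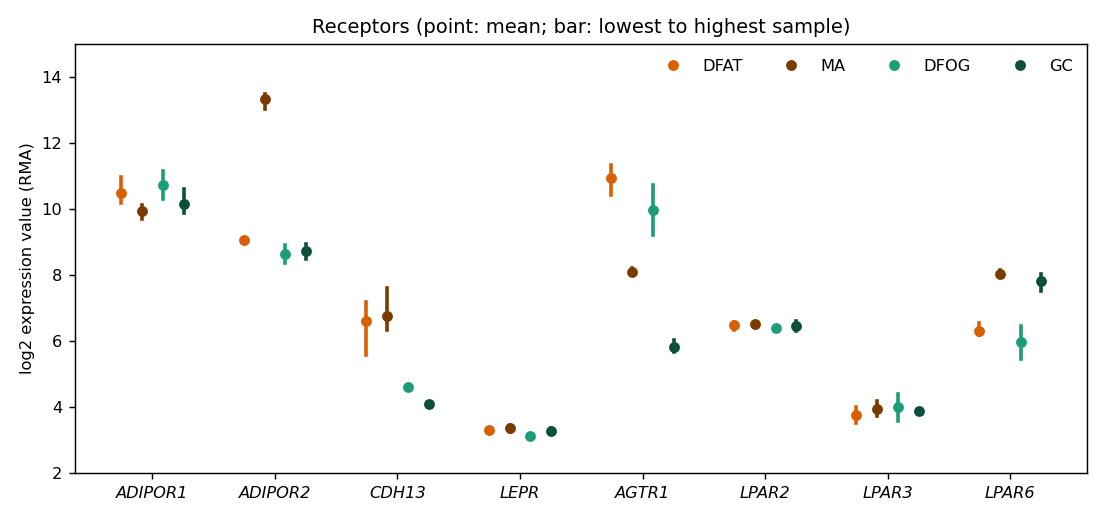
Log2 expression value of 8 receptors in DFAT, MA, DFOG and GC, with a point for the mean and a bar from the lowest to the highest sample. ADIPOR2 is highest in MA, AGTR1 is higher in DFAT than in MA and in DFOG than in GC, and LPAR6 is lower in both cultured groups.

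Around each factor, the measured partners changed in both directions in DFAT on the deposited scale. Of all probe sets, 32.1% were called in DFAT and 24.9% in DFOG. In the renin-angiotensin list 9 of 16 genes were measured, and in DFAT 2 rose and 1 fell (5 and 0 with poly-A centring), and in DFOG 3 rose and 0 fell (1 and 1 with that centring). With the actin covariate 2 rose and 0 fell in DFAT, and 1 rose and 0 fell in DFOG. ANPEP, an aminopeptidase that trims angiotensin peptides, rose by 3.48 ± 0.32 in DFAT (SE, limma adjusted p = 8.7e-06). It also rose in DFOG, by 1.34 (limma adjusted p = 0.0177, not called with poly-A centring). ENPEP, which also shortens angiotensin peptides, fell by 0.99 in DFAT (adjusted p = 0.00208, not called with poly-A centring or the actin covariate). ACE, which makes angiotensin II, did not pass in DFAT (0.15, adjusted p = 0.553) or DFOG (0.27, adjusted p = 0.354).

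In the list of lysophosphatidic acid turnover and receptors 11 of 17 genes were measured. Of them 2 rose and 6 fell in DFAT (median -1.61), against 4 that rose and 2 that fell in DFOG (median 0.18). MGLL and PNPLA2 are among the 6 falls and ENPP1 among the 2 rises, so these counts are not specific to lysophosphatidic acid. With poly-A centring the counts were 3 and 5 in DFAT, and 1 and 3 in DFOG. MGLL, a lipase that breaks down monoglycerides, changed by -3.41 ± 0.32 in DFAT (SE, limma adjusted p = 9.9e-06) and by 1.34 in DFOG (adjusted p = 0.0172, not called with poly-A centring or the actin covariate). AGPAT2, which uses lysophosphatidic acid to make phosphatidic acid, fell in DFAT (-1.61, adjusted p = 0.00149, not called with poly-A centring) and in DFOG (-3.07, adjusted p = 4.87e-05). PNPLA2, the triglyceride lipase ATGL, changed by -2.72 in DFAT (adjusted p = 3.01e-06). ENPP1, a relative of autotaxin that degrades nucleotides, rose by 3.94 ± 0.20 in DFOG (SE, limma adjusted p = 1.46e-07) and by 0.59 in DFAT (limma adjusted p = 0.0232).

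Retinoid genes had 11 of 21 measured, of which 1 rose and 4 fell in DFAT (3 and 3 with poly-A centring) and 1 rose and 1 fell in DFOG (1 and 2). CRABP2, which delivers retinoic acid to its nuclear receptor, was at 9.82 ± 0.35 in DFAT and 5.55 ± 0.19 in MA (SD, n = 3 each), a rise of 4.27 ± 0.27 (SE, limma adjusted p = 6.66e-07). CRABP2 also rose in DFOG, by 1.87 (limma adjusted p = 0.00102). ALDH1A1, which makes retinoic acid, changed by -3.86 ± 0.65 (SE, limma adjusted p = 0.000758), and RBP7, an intracellular retinol carrier, by -2.30 ± 0.36 (SE, limma adjusted p = 0.000531). Neither was called with the actin covariate. DGAT1, which can esterify retinol as well as diglycerides, changed by -1.89 in DFAT (adjusted p = 0.00011). TTR, the partner of RBP4 in blood, was at 4.43 ± 0.13 in DFAT and 5.01 ± 0.17 in MA (SD, n = 3 each), a change of -0.58 (limma adjusted p = 0.0191) that was not called with poly-A centring or the actin covariate.

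For complement 8 of 14 listed genes were measured, and 2 rose and 4 fell in DFAT (4 and 1 with poly-A centring), and 1 rose and 2 fell in DFOG (1 and 5). CFB, the substrate of CFD, was at 6.86 ± 0.25 in DFAT and 7.37 ± 0.13 in MA (SD, n = 3 each, change -0.51, limma adjusted p = 0.033, not called with poly-A centring or the actin covariate). C3, the central component, was at 6.08 ± 1.10 in DFAT and 5.00 ± 0.40 in MA (SD, n = 3 each) and did not pass (limma adjusted p = 0.082) except with poly-A centring (1.70, adjusted p = 0.00603). Among the surface inhibitors of complement, CD59 fell in DFAT (-2.40, adjusted p = 5.97e-05) while CD46 (1.47, adjusted p = 0.000328) and CD55 (1.66, adjusted p = 0.00468, not called with the actin covariate) rose there. CD46 and CD55 fell in DFOG, by -0.94 (adjusted p = 0.0154) and -3.48 (adjusted p = 9.37e-05). CLU, a fluid-phase complement inhibitor, rose in DFOG by 3.80 (adjusted p = 0.00251).

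The machinery that folds and exports adiponectin did not fall together. Of 13 listed genes 11 were measured, and in DFAT 4 rose and 2 fell (7 and 1 with poly-A centring), while in DFOG 0 rose and 1 fell (0 and 3 with that centring). PLOD1, a lysyl hydroxylase of collagen-like proteins, rose by 2.78 ± 0.27 (SE, limma adjusted p = 1.23e-05), PDIA3, a disulphide isomerase, by 1.60 (adjusted p = 0.000101) and PLOD3, another lysyl hydroxylase, by 1.34 (adjusted p = 7.66e-05). GSTK1, also called DsbA-L and known to promote adiponectin assembly, was at 8.98 ± 0.25 in DFAT and 11.10 ± 0.13 in MA (SD, n = 3 each), a change of -2.12 ± 0.19 (SE, limma adjusted p = 8.02e-06). GSTK1 also changed in DFOG, by -0.80 (limma adjusted p = 0.0181, not called with the actin covariate). ERP44, which retains adiponectin in the early secretory pathway, did not pass in DFAT (0.22, adjusted p = 0.342).

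Other products that fat cells release were split. Of 43 listed genes 29 were measured, and 9 rose and 7 fell in DFAT relative to MA (14 and 5 with poly-A centring), and 9 rose and 4 fell in DFOG relative to GC (6 and 10 with that centring). LPL, a secreted lipase, was at 8.04 ± 1.43 in DFAT and 13.46 ± 0.10 in MA (SD, n = 3 each), a change of -5.42 ± 0.64 (SE, limma adjusted p = 5.86e-05). GPX3, the plasma glutathione peroxidase, changed by -5.34 ± 0.48 (SE, limma adjusted p = 8.12e-06). C1QTNF2, a relative of adiponectin, rose in both lineages, by 3.15 ± 0.30 in DFAT (SE, limma adjusted p = 1.16e-05) and by 3.84 ± 0.34 in DFOG (SE, limma adjusted p = 9.76e-06). The chemokine gene CCL2 was at 12.40 ± 0.71 in DFOG (SD, n = 2) and 4.07 ± 0.21 in GC (SD, n = 3), a rise of 8.33 ± 0.57 (SE, limma adjusted p = 1.62e-06). In fat cells it was at 12.63 ± 1.0 in DFAT and 11.18 ± 0.86 in MA (SD, n = 3 each) and did not pass (limma adjusted p = 0.0512), although it did with poly-A centring (2.08, adjusted p = 0.0026) and with a repeated quantile normalization (1.49, adjusted p = 0.0425).

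For each gene, the 3 named genes with the most similar pattern were found by Pearson's r over the 11 samples, as a description. The 11 samples fall into 4 groups, so r mostly follows the group means. ADIPOQ was closest to DBI (r = 0.993), LIPE (0.993) and PTGR1 (0.992), and LEP to PROM1 (0.989), PPP1R3E (0.988) and PNPLA2 (0.986). RBP4 was closest to HADH (0.990), SMIM4 (0.987) and MDFIC (0.985), and CFD to ECHDC2 (0.984), ANGPTL4 (0.972) and TMEM100 (0.969). AGT was closest to SULT1A3 (0.996), F2RL2 (0.996) and NFIA (0.991), and ENPP2 to AQP11 (0.987), EIF4EBP2 (0.980) and SESN1 (0.979). RETN had no equally close match, its highest values being 0.804 with TKT, 0.804 with ECHDC1 and 0.803 with ATP6V1A. Among the 7 genes themselves r was highest between ADIPOQ and LEP (0.989) and lowest between RETN and ENPP2 (0.419).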

How the data were processed

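The authors deposited log2 expression values of 12 Affymetrix porcine genome arrays (24123 probe sets), made with RMA per the submitters' processing notes; its version and settings, and the genome build, are not given in the sources used here, so no coordinates are printed. The values hold no detection calls, and the number of arrays limits the precision. Tests excluded the 124 control probe sets. Gene names came from the platform annotation, which can be old: 10069 tested probe sets had 1 symbol, 198 several and 13732 none. In R 4.3.3, limma 3.58.1 fitted 1 mean per group to all 4 groups (11 samples, 7 residual degrees of freedom), with two-sided moderated tests and Benjamini-Hochberg adjustment over 23999 probe sets. Figures used Python 3.11.15 and matplotlib 3.10.9. The code was tested on simulated data.

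The 7 genes, the lists (receptors, partners of each factor, other secreted products, and markers of adipocytes, granulosa cells, macrophages, endothelial cells, neutrophils and lymphocytes, and hepatocytes) and the tests were chosen with earlier results of these data known. Named were the 7 genes, up to 4 called genes per pathway list with the largest change in either dedifferentiation comparison, the 7 genes' receptors, TTR, C3 and CFB; any other list gene was chosen after its values were seen. Likeness was computed among named genes with an SD of at least 1. Of endothelial markers 4 of 10 fell and 1 rose in DFAT, of neutrophil and lymphocyte markers 3 of 11 fell, and of hepatocyte markers 3 of 8 fell. Over all probe sets 16.4% were called lower. With poly-A centring 2, 0 and 0 of these markers fell, and with the actin covariate 1, 0 and 1.

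Same-numbered samples were not treated as paired. Their deviations from the group means correlated at 0.10, 0.17 and 0.13 between DFAT and MA. Between DFOG and GC they correlated at 0.60, 0.51 and 0.36. DFOG 2 and 3, which count as 1 sample in the fit, were taken separately here. DFOG 3 correlated better with GC 2 (0.51) than with GC 3 (0.36). Alternatives were other scalings, variance models, array weights, a block, an actin covariate, a filter on probe sets under 5 in every group, other probe sets and leaving out arrays. Leaving out DFOG 2 and 3 together was added after seeing the data.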

Additional observations from a re-analysis of the deposited data

Results flagged for a closer look

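Of the 7 genes 5 changed by different amounts in the 2 lineages by the test of the difference itself, (DFAT minus MA) minus (DFOG minus GC). Over all probe sets 23.3% were called in this test, 11.7% in the negative direction of these 5 genes and 11.6% in the other. The differences on the log2 scale were -8.09 for ADIPOQ, -2.46 for LEP, -6.40 for RBP4, -5.53 for AGT and -4.62 for ENPP2, with each gene lower in all 3 DFAT arrays than in any MA array. In granulosa cells RBP4 was called higher in DFOG, a call that 6 alternatives lost, ENPP2 was called lower, and ADIPOQ, LEP and AGT were not called. ADIPOQ and AGT were already low in GC, at means of 4.19 and 4.05, so a fall there had little room to show. The same may hold for RBP4, at 4.51 in GC, and for LEP, at 3.48 in GC on its other probe set. ENPP2 had a mean of 9.84 in MA but 6.18 in GC, so a fall as large as that in DFAT had little room there too. On the other RBP4 probe set the difference was -0.43 and not called (limma adjusted p = 0.291). With poly-A centring LEP was not called (-1.04, limma adjusted p = 0.104). Groups of 2 or 3 samples are too small for a test of single outlying arrays.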

How the results depend on the processing

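The falls of ADIPOQ, LEP, RBP4, CFD, AGT and ENPP2 in DFAT were called in each of 24 alternative fits of the same probe set or the gene's mean, with ranges of -8.73 to -7.58, -3.31 to -1.82, -5.65 to -2.87, -2.82 to -1.68, -5.53 to -4.74 and -6.87 to -6.02. RBP4 lost its calls on its other probe set. Its values there were -0.41 in DFAT minus MA, 0.02 in DFOG minus GC, -0.43 in the interaction and 0.03 in MA minus GC. In DFAT minus DFOG it turned to -0.40. RETN was called lower in DFAT with the actin covariate (-1.15) and ranged from -0.70 to -0.19 with arrays left out, and it turned to -0.57 in MA minus GC with poly-A centring. The RBP4 rise in DFOG was not called with poly-A centring (0.27), the actin covariate (1.16) or the mean of its probe sets (0.54), which leaves 0 genes called higher, and it ranged from 0.87 to 1.26 (0 to 1 genes) with arrays left out. Poly-A centring also called CFD lower in DFOG (-1.40), so 2 genes were lower. Genes called higher in DFAT than in DFOG numbered 1 with only the 2 groups fitted and 1 to 4 with arrays left out. Genes called lower numbered 1 with DFOG 2 and 3 separate or the actin covariate, and 0 to 1 with arrays left out.

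Of all probe sets, poly-A centring called 6884 higher and 1340 lower in DFAT than MA, 1062 and 9355 in DFOG than GC, 16040 and 721 in the interaction, 1146 and 19065 in MA than GC, and 675 lower in DFAT than DFOG. The actin covariate called 2296 higher in DFAT than MA, and fitting only DFAT and DFOG called 422 higher and 603 lower. Without DFOG replicates 2 and 3 together 544 were higher in DFAT than DFOG. With arrays left out, 1944 to 3271 were higher and 1642 to 3292 lower in DFOG than GC (lowest without DFOG replicate 1), and 451 to 1095 higher and 652 to 1085 lower in DFAT than DFOG. The causes were not tested. With the replicate block 0 of 14 calls in the dedifferentiation comparisons changed; RBP4 in DFAT minus DFOG was lost (1.07, adjusted p = 0.0712), and CFD was called there (1.32, adjusted p = 0.0407) and in the interaction (-1.77, adjusted p = 0.0182). Each DFAT array correlated best with the MA array of its own number, a hint from the data and not from the design. DFOG 1 and DFOG 2 likewise correlated best with the GC array of their own number (0.60 and 0.51). DFOG 3 correlated better with GC 2 than with GC 3. As it is nearly identical to DFOG 2, its values give no separate information on pairing.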
